A study of Arabidopsis thaliana with 6 samples.

Results

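Class III peroxidases of Arabidopsis thaliana were followed in messenger RNA from whole seedlings. The set was a fixed list of 60 genes of the family, of 33617 genes in the deposited table, chosen by family membership and not by a measured value. A member with fewer than 60 fragments over the 6 libraries was taken as unmeasured, which left 28 measured members. Libraries came from 2 genotypes, with 3 libraries each, numbered 0, 1 and 2. The first genotype was cog1-2D, an activation-tagging mutant line named for COG1, a Dof-type transcription factor, and the second was the Col-0 wild type. All seedlings were 7 days old and grew untreated at 23 °C under long days on MS medium. The labels do not say whether replicates came from separate cultures, so p-values measure only the spread between these samples.

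Class III peroxidases are secreted haem enzymes of plants, and most act in the cell wall or the vacuole. They use hydrogen peroxide to oxidise phenolic compounds, which joins monolignols into lignin and crosslinks wall proteins such as extensins, and they can also produce reactive oxygen species that loosen the wall. In seedlings they are known for lignifying the Casparian strip and xylem vessels, for root hair growth and for the oxidative burst of defence.

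Totals ran from 10575945 to 11202122 fragments assigned to genes per library. Levels of 1 gene between libraries are given as CPM, its count over the TMM-adjusted total of the library. Minus-strand genes were nearly unmeasured in every library: 13666 minus-strand genes held 0.1348% of fragments, with a median of 1 fragment over 6 libraries, against a median of 985 for 13777 plus-strand genes. Wild type replicate 1 stood apart, with 13123 genes above 0 against 15366 to 16433 in the other libraries. The 7 tested markers of green tissue were present in every library, summing to 29900 to 38400 CPM in the wild type and 36000 to 38200 CPM in cog1-2D, and none was called as changed. Of these markers 3 lie on the minus strand (LHCB2.1, RBCS1A and RCA), so their values do not give their levels. All 3 were lowest in wild type replicate 1 (1.52, 8.93 and 4.46 CPM, against 6.08, 48.2 and 21.4 CPM in replicate 0). None of the 4 plus-strand markers was lowest there. CAB1 alone had 20200 to 25500 CPM. COG1 itself lies on the minus strand and had 0, 3 and 3 fragments in cog1-2D and 0 in each wild type library, so its level does not check the labels. The peroxidases named in the title of the series, PRX2 and PRX25, also lie there and are not members of the list. PRX2 was at 0 in every library, and PRX25 had 1, 1 and 2 fragments in cog1-2D and 0 in each wild type library.

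The same split ran through the family. Of 29 plus-strand members 27 were measured, and of 31 minus-strand members 1 was measured, PRX42 (AT4G21960), with 92 fragments in all. The other 30 minus-strand members had at most 51 fragments in all (PRX32, AT3G32980), and 14 of them were at 0 in every library. They include PRX72, PRX66 and PRX52, known from lignin deposition, PRX35 of root hairs, PRX57, a root tip gene, and PRX37, PRX62 and PRX21 of the defence list. Their levels in these seedlings, and that of PRX42, cannot be read from the counts. The plus-strand members PRX6 and PRX36, the second known from seed coat mucilage release, were at 0 in all 6 libraries. A count of 0 allows up to 3 fragments over the 6 libraries, or 0.0462 CPM without TMM factors, for counting error only.

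Several members are tandem copies with similar coding sequences, which bears on how fragments are assigned to each copy. Stretches of 48 bases around the codon of the distal histidine, the catalytic residue that takes up a proton from hydrogen peroxide, are shown for the 3 closest measured pairs. They were read 5′ to 3′ from the plus strand of TAIR10.1, capitals mark the bases that differ between the copies of a pair, and the histidine codon follows the first 30 bases.
PRX33: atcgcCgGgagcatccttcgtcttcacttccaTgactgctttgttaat
PRX34: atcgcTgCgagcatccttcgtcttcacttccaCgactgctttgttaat
PRX22: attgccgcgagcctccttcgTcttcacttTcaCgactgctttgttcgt
PRX23: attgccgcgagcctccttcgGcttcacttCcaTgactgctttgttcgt
PRX50: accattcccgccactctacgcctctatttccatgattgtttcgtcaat
PRX51: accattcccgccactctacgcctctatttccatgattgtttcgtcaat
The windows lie at chr3:18200899-18200946 for PRX33, chr3:18208002-18208049 for PRX34, chr2:16076623-16076670 for PRX22, chr2:16079906-16079953 for PRX23, chr4:17631872-17631919 for PRX50 and chr4:17634954-17635001 for PRX51, each within 1 coding exon. PRX33 and PRX34 differed at 3 of the 48 bases, PRX22 and PRX23 at 3, and PRX50 and PRX51 at 0. Over the whole coding sequence, 90.7% of aligned bases were identical between PRX33 and PRX34, 90.6% between PRX22 and PRX23 and 92.4% between PRX50 and PRX51, and the longest identical runs were 111, 62 and 67 bases. PRX43 and PRX44 were also close neighbours, but shared 61.0% of aligned bases, with a longest run of 14. The usual gene of the family has 4 coding exons, as did 21 of the 28 measured members.

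Levels per gene length were compared as FPKM, deposited fragment values scaled by gene length and library. The measured members spanned from PRX12 (AT1G71695), at a mean of 170 FPKM over the 6 libraries, to PRX42, at 0.856 FPKM. PRX42 lies on the minus strand, so its value cannot be read as its level in the seedlings. The lowest plus-strand member among them was PRX5, at 2.0 FPKM. The median of the measured members was 31.9 FPKM, beside 20.9 FPKM for all 10259 genes with at least 60 fragments. In all, 5 members lay at 100 FPKM or more, 16 between 10 and 100, and 7 below 10.

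PRX12 had 177, 188 and 180 FPKM in cog1-2D replicates 0, 1 and 2, and 141, 162 and 171 FPKM in the wild type. It was the highest member in both genotypes, and 93.0% of measured genes lay below its mean. PRX22 followed with a mean of 148 FPKM, PRX45 with 134, PRX50 with 116 and PRX34 with 103. Next came PRX3, first described as a cold-induced gene, with 82.7 FPKM, then PRX31 with 76.3, PRX23 with 69.6, PRX47 with 67.5 and PRX39 with 66.1. Of 27 neighbouring pairs in this order, 8 stood in the same order in all 6 libraries: PRX12 above PRX22, PRX30 above PRX44, PRX73 above PRX51, PRX51 above PRX20, PRX17 above PRX9, PRX19 above PRX56, PRX60 above PRX40 and PRX5 above PRX42. The ranges over 6 libraries were separate for 2 of these pairs, PRX17 with PRX9 and PRX19 with PRX56, and the other neighbours changed order between libraries. Between genotypes PRX34 stood at rank 2 in the wild type and rank 10 in cog1-2D, PRX39 at ranks 12 and 6, and PRX33 at ranks 18 and 12.

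**Figure D1:**
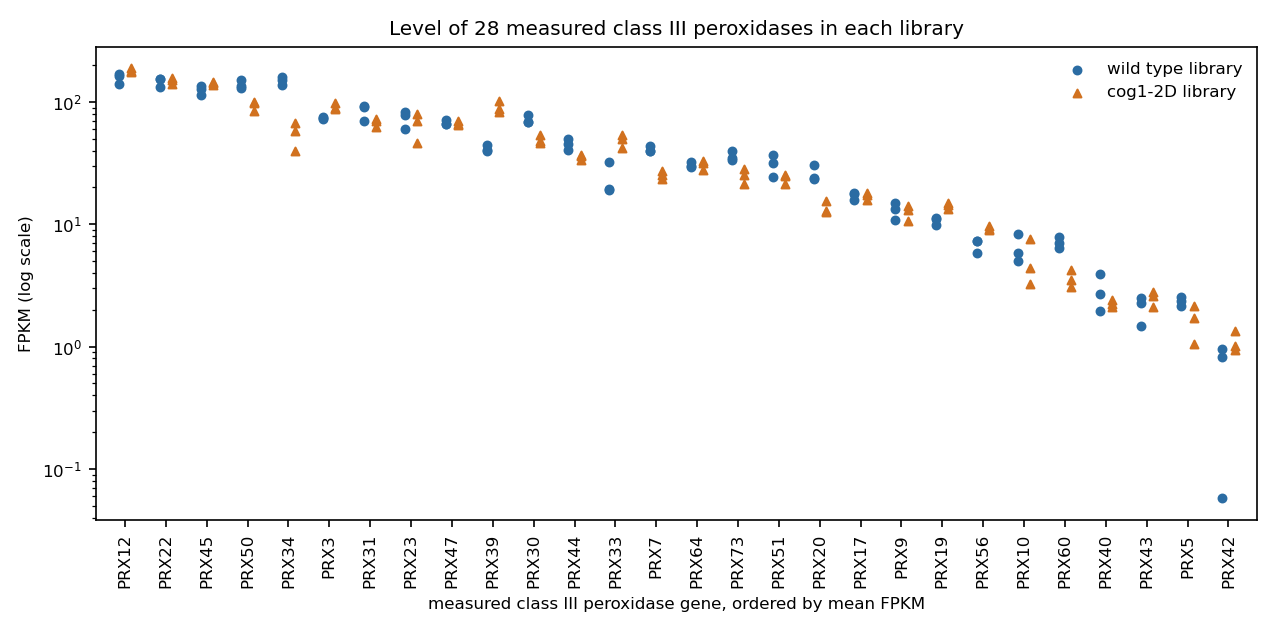
FPKM (log axis) of the 28 measured class III peroxidases in each library, ordered by mean FPKM; circles are the 3 wild type libraries and triangles the 3 cog1-2D libraries. The groups are separate in FPKM for 15 of the 28 members. In CPM they are separate for 14, or 50%, beside 49.8% of all genes tested. PRX34 and PRX39 are separate in opposite directions.

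The family total was lower on average in cog1-2D, but its libraries overlapped those of the wild type. Minus-strand members entered this total nearly uncounted, so it stands for the plus-strand members and not for the whole family. All 60 listed members together reached 1253, 1386 and 1349 FPKM in cog1-2D replicates 0, 1 and 2, and 1318, 1474 and 1520 FPKM in the wild type. The means were 1330 ± 69.0 FPKM in cog1-2D and 1440 ± 106 FPKM in the wild type (SD, n = 3 each), a ratio of 0.925. The groups overlapped, and a two-sided exact permutation test gave p = 0.3, the smallest possible p being 0.1. Without PRX12 the ratio was 0.897 (exact permutation p = 0.2). With 3 libraries each, these tests do not show that the totals are alike.

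Beneath that sum the members moved in both directions. The expected counts were compared with edgeR's quasi-likelihood test, with p-values adjusted by the Benjamini-Hochberg method over all 10347 genes tested and called below 0.05. Of the 28 measured members, all of which were tested, 5 were higher and 9 lower in cog1-2D and 14 did not pass. The called share was 50% of members, beside 36.3% of all genes tested; higher calls made up 17.9% of members beside 16.3% of all genes, and lower calls 32.1% beside 20%. The members' median log2 fold change was -0.12, beside 0.00 for all genes tested. In CPM, libraries of the genotypes did not overlap for 14 members, or 50%, beside 49.8% of all genes; 6 of them were higher in cog1-2D, beside 24.3% of all genes, and 8 lower, beside 25.5%. In FPKM the number was 15, with PRX45 added. In whole seedlings, fewer cells of a type and less RNA per cell cannot be told apart for any of these differences.

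The 5 members called higher summed to 157 FPKM in the wild type and 254 FPKM in cog1-2D, and the 9 called lower to 601 and 371 FPKM. The 14 others summed to 679 and 703 FPKM. These sums describe members sorted by the calls themselves and carry no test. The 3 members with the highest mean FPKM supplied 29.4% to 30.3% of the family total in wild type libraries and 34.8% to 37.0% in cog1-2D libraries. For the 5 highest the order was the other way, with 49.8% to 50.2% in wild type and 46.6% to 47.1% in cog1-2D libraries.

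**Figure D2:**
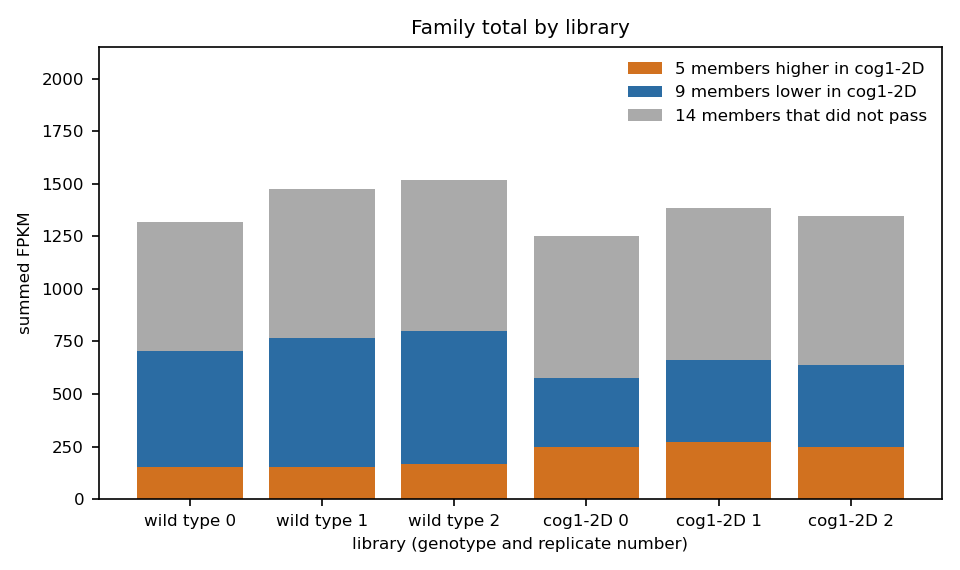
Summed FPKM of the family in each library (linear axis from 0), split into the 5 members called higher in cog1-2D, the 9 called lower and the 14 that did not pass. The totals run from 1253 to 1520 FPKM and overlap between genotypes, while the lower segment shrinks and the higher segment grows in cog1-2D.

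**Figure D3:**
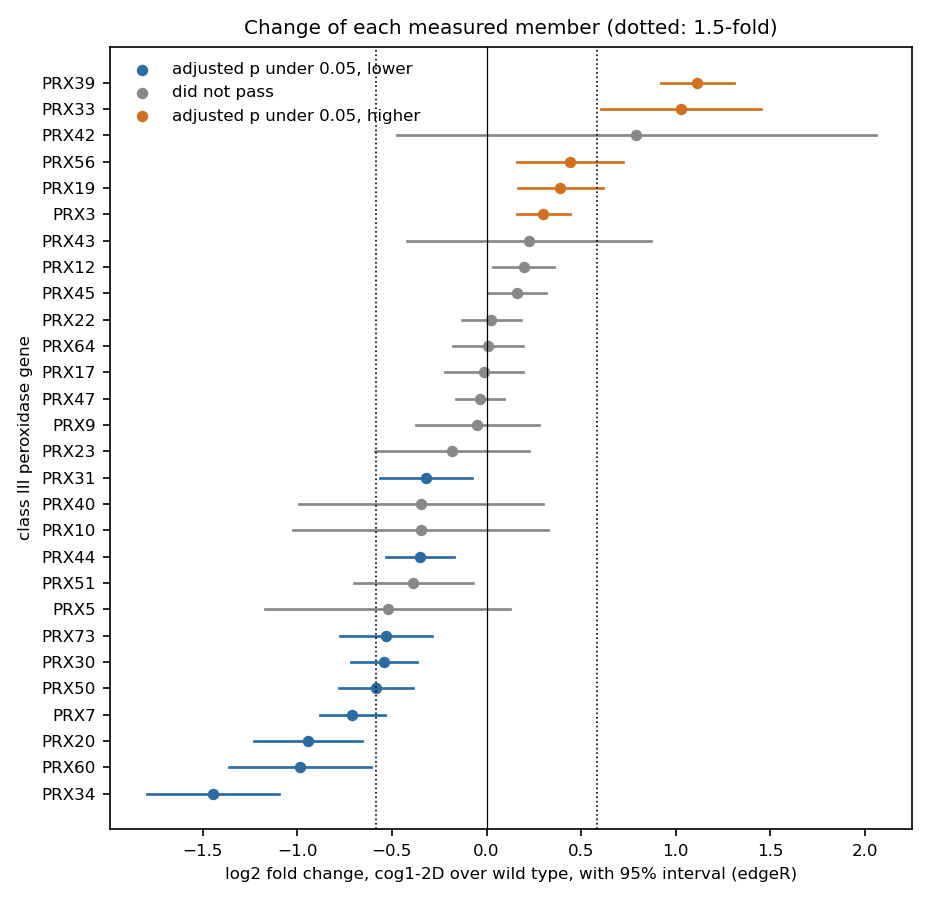
Log2 fold change (positive: higher in cog1-2D) for the 28 measured members with 95% intervals from edgeR; colours mark the calls and dotted lines mark 1.5-fold. PRX39 and PRX33 lie at the upper end and PRX34 at the lower end.

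Members of the Casparian strip list, which lignify the ring of wall around endodermal cells of the root, showed 2 higher calls and no lower call among 4 tested. Of all genes tested, 16.3% were called higher and 20% lower. PRX39 (AT4G11290), also known as a target of the root growth regulator UPBEAT1, had 95.1, 117 and 101 CPM in cog1-2D and 46.8, 46.7 and 51.2 CPM in the wild type. Every cog1-2D library lay above every wild type library. The log2 fold change was 1.11 ± 0.09 (SE; edgeR adjusted p = 1.36e-05), the largest rise among the members. PRX3 (AT1G05260) had 104, 95.9 and 92.3 CPM in cog1-2D and 81.7, 76.7 and 79.1 CPM in the wild type, again without overlap. Its log2 fold change was 0.30 ± 0.06 (edgeR adjusted p = 0.00511). PRX64 (AT5G42180) and PRX9 (AT1G44970) did not pass, with log2 fold changes of 0.01 ± 0.08 and -0.05 ± 0.14. The locus of PRX64 shares 34 bases with AT5G42190, so fragments from this stretch could count for either locus. The summed CPM of the 3 tested endodermis markers was 101 to 115 in wild type and 83.9 to 95.8 in cog1-2D libraries. Of these markers the endodermal regulator SCR fell by 0.30 on the log2 scale, while MYB36 and CASP2 did not pass, and their part in the result was not tested. Of the membrane proteins that place the strip, 3 were tested (CASP2, CASP4 and CASP5) and none passed; CASP5 had a log2 fold change of 0.89 ± 0.40 and CASP4 of -0.20 ± 0.22.

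The vessel members PRX17 (AT2G22420), of lignified tissue, and PRX47 (AT4G33420), of xylem vessels, did not pass. PRX47 had 78.4, 74.3 and 73.2 CPM in cog1-2D and 76.0, 80.0 and 75 CPM in the wild type, with overlapping groups. Its log2 fold change was -0.03 ± 0.06, and its 95% interval ran from -0.16 to 0.09. The locus of PRX47 shares 78 bases with BAK1, so fragments from this stretch could count for either locus. PRX47 was the 1 measured member whose counts were not all whole. PRX17 had a log2 fold change of -0.01 ± 0.09. Genes of monolignol synthesis and laccases make and polymerise the units of lignin. Of 16 listed, 10 lie on the minus strand, PAL1, PAL2, C4H and HCT among them, so their levels cannot be read. Of the 6 tested, all on the plus strand, 1 was higher and 1 lower, beside 16.3% and 20% of all genes tested. The laccase LAC17 rose from 29.4 to 38.9 CPM, a log2 fold change of 0.40 ± 0.09, and CCR1, an enzyme of monolignol synthesis, fell by 0.30 ± 0.07 on the log2 scale.

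The root hair members moved together: all 4 tested members of that list were lower, beside 20% of all genes tested. Their median log2 fold change was -0.62. PRX60 (AT5G22410), catalogued as a root hair specific gene, had 3.37, 4.58 and 3.8 CPM in cog1-2D and 7.82, 6.93 and 8.57 CPM in the wild type. No library of one genotype reached the other. PRX60 fell by 0.99 ± 0.17 on the log2 scale (edgeR adjusted p = 0.00168). PRX7 (AT1G30870) had 26.3, 30.3 and 28.4 CPM in cog1-2D and 45.3, 44.3 and 49.3 CPM in the wild type, and fell by 0.71 ± 0.08. PRX73 (AT5G67400), another gene of the root hair specific catalogue, had 23.6, 28.2 and 31.2 CPM in cog1-2D and 37.5, 38.6 and 44.1 CPM in the wild type, and fell by 0.53 ± 0.11. PRX44 (AT4G26010) had 38.7, 39.1 and 35.5 CPM in cog1-2D and 43.9, 52.2 and 48.5 CPM in the wild type, and fell by 0.35 ± 0.08. All 4 had separate groups of libraries, beside 25.5% of all genes tested that were separate in this direction. The locus of PRX44 shares 1304 bases with AT4G26020, and that of PRX7 shares 82 bases with AT1G30880, so fragments from these stretches could count for either locus; the counting setting for overlaps is not given in the sources used here.

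General root hair markers were lower beside them. Of 6 tested, 5 were lower, beside 20% of all genes tested, and none was at 0. Their median log2 fold change was -0.97. Their summed level was 103 to 108 CPM in wild type and 59.5 to 60.7 CPM in cog1-2D libraries. RSL4, a regulator of root hair outgrowth and 1 of these 5 markers, fell by 1.26 ± 0.31 on the log2 scale. RHD6, a regulator outside the marker list, fell by 1.27 ± 0.20. Of 7 tested root markers, 1 was higher (the aquaporin TIP4;1) and 2 lower (the sodium transporter HKT1 and the auxin carrier EIR1). Of all genes tested, 36.3% were called either way. The summed levels of the root markers were 158 to 172 CPM in wild type and 150 to 167 CPM in cog1-2D. The part of these markers in the lower root hair peroxidases was not tested.

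**Figure D4:**
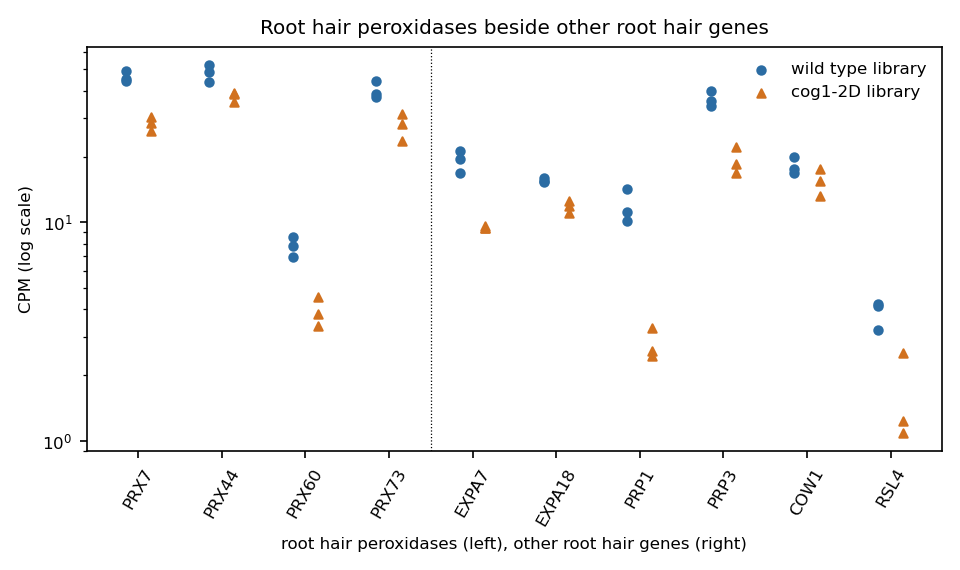
CPM (log axis) of the 4 root hair peroxidases, left of the dotted line, and of the 6 root hair markers, right of it, in the 3 wild type (circles) and 3 cog1-2D (triangles) libraries. All 4 peroxidases and 5 of the 6 markers pass the test as lower, and COW1 does not.

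PRX33 (AT3G49110) and PRX34 (AT3G49120), apoplastic peroxidases known from the oxidative burst against pathogens, moved in opposite directions. Their starts lie 7064 bases apart on chromosome 3, with PRX33 at chr3:18200587-18203265 and PRX34 at chr3:18207651-18210333. PRX34 had 53.6, 78.1 and 90.6 CPM in cog1-2D and 189, 212 and 204 CPM in the wild type. The groups were far apart, and PRX34 fell by 1.45 ± 0.15 on the log2 scale (edgeR adjusted p = 0.00011), the largest fall among the members. PRX33 had 57.9, 74.0 and 68.4 CPM in cog1-2D and 27.0, 26.5 and 44.8 CPM in the wild type. Wild type replicate 2 was above its fellows, yet below every cog1-2D library. The log2 fold change of PRX33 was 1.03 ± 0.19 (edgeR adjusted p = 0.0026).

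In the wild type PRX34 far outweighed PRX33, and in cog1-2D the copies were nearly level. PRX33 held 12.5%, 11.1% and 18.0% of the pair's fragments in wild type replicates 0, 1 and 2, and 51.9%, 48.7% and 43.0% in cog1-2D. The sum of both copies, which does not depend on how fragments were split between them, was 235 ± 16.9 CPM in the wild type and 141 ± 25.7 CPM in cog1-2D. The summed pair fell by 0.74 ± 0.12 on the log2 scale (edgeR adjusted p = 0.00149), without overlap. All counts of both copies were whole numbers, so the deposited values show no fragments divided between them, but how fragments that match both copies were assigned is not given in the sources used here. PRX5 (AT1G14550), the third tested gene of the defence list, had a log2 fold change of -0.52 ± 0.29 and did not pass.

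In the pair PRX50 (AT4G37520) and PRX51 (AT4G37530), 3196 bases apart on chromosome 4, both copies had lower means in cog1-2D. PRX50 had 96.6, 118 and 113 CPM in cog1-2D and 153, 159 and 179 CPM in the wild type. The groups did not overlap, and PRX50 fell by 0.59 ± 0.09 on the log2 scale (edgeR adjusted p = 0.000795). PRX51 had 25.8, 30.3 and 30.8 CPM in cog1-2D and 30.3, 38.5 and 45.1 CPM in the wild type, with overlap between the genotypes. It missed the threshold here, with a log2 fold change of -0.39 ± 0.14 (edgeR adjusted p = 0.0554), and it is listed as lower in the authors' deposited table (q = 0.00674). Without wild type replicate 0 it passed by edgeR (log2 fold change -0.53, adjusted p = 0.00484). PRX50 held 78.6% to 79.6% of the pair's fragments in cog1-2D and 79.9% to 83.5% in the wild type. The sum fell by 0.55 ± 0.09 (edgeR adjusted p = 0.0017).

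PRX22 (AT2G38380) and PRX23 (AT2G38390), 3390 bases apart on chromosome 2, showed no such shift. PRX22 had 209, 234 and 226 CPM in cog1-2D and 200, 227 and 230 CPM in the wild type, with overlapping groups. Its log2 fold change was 0.03 ± 0.07, with a 95% interval from -0.13 to 0.18. PRX23 varied more, from 56.1 to 95.1 CPM in cog1-2D and from 73.5 to 99.7 CPM in the wild type, with a log2 fold change of -0.19 ± 0.18. The sum of the pair had a log2 fold change of -0.03 ± 0.09 (edgeR adjusted p = 0.817). PRX43 (AT4G25980) and PRX44, 11021 bases apart on chromosome 4 with 2 genes between them, differed in level: PRX43 held 2.14% to 5.28% of the pair's fragments. PRX43 did not pass (log2 fold change 0.22 ± 0.29), and its locus shares 423 bases with CIL. Another 5 pairs within 20 kb lie on the minus strand and were not measured.

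**Figure D5:**
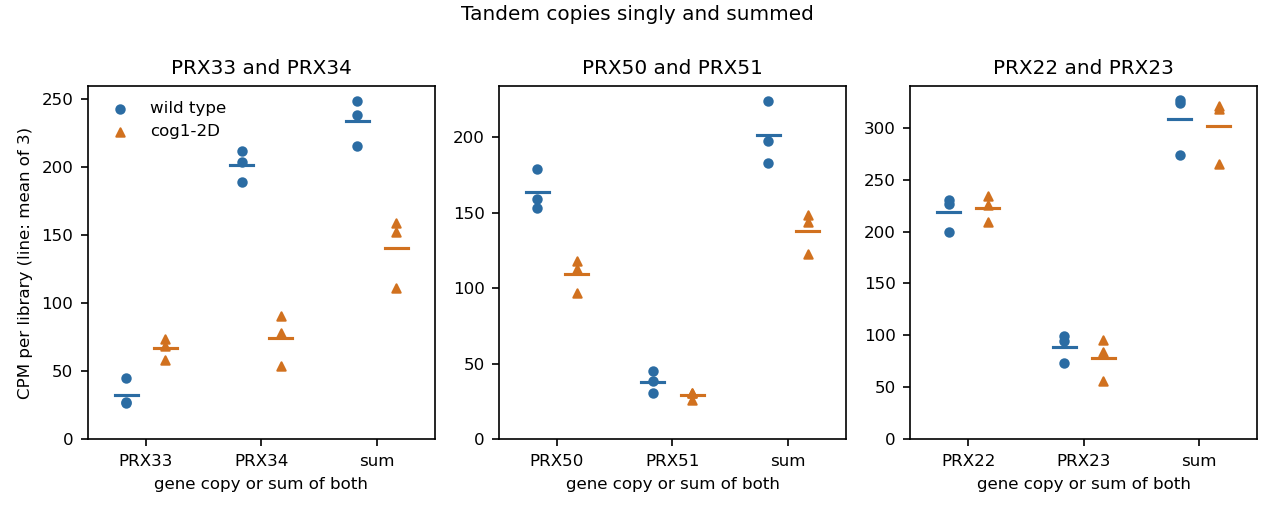
CPM (linear axis from 0) of each copy and of the sum in 3 tandem pairs; circles are wild type libraries, triangles cog1-2D libraries and lines the mean of 3. PRX33 and PRX34 lie far apart in the wild type and close together in cog1-2D, PRX50 and its sum are lower in cog1-2D, and PRX22, PRX23 and their sum overlap.

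The remaining called members have less settled roles. PRX20 (AT2G35380) had 12.7, 15.6 and 13.1 CPM in cog1-2D and 24.0, 31.1 and 24.7 CPM in the wild type, without overlap, and fell by 0.94 ± 0.13 on the log2 scale (edgeR adjusted p = 0.000463). PRX30 (AT3G21770) had 49.0, 56.5 and 50.5 CPM in cog1-2D and 73.3, 71.8 and 81.9 CPM in the wild type, also without overlap, and fell by 0.54 ± 0.08. PRX31 (AT3G28200) had 84.2, 94.6 and 98.1 CPM in cog1-2D and 95.4, 126 and 125 CPM in the wild type. It is the 1 called member whose groups overlapped, with a fall of 0.32 ± 0.11 (edgeR adjusted p = 0.0456), and the call was lost when any library other than wild type replicate 0 was left out (adjusted p from 0.0629 to 0.142). PRX19 (AT2G34060) had 17.4, 16.7 and 15.5 CPM in cog1-2D and 13.1, 13.1 and 11.6 CPM in the wild type, a log2 fold change of 0.39 ± 0.10. PRX56 (AT5G15180) had 10.5, 10.9 and 10.1 CPM in cog1-2D and 6.69, 8.26 and 8.29 CPM in the wild type, a log2 fold change of 0.44 ± 0.12. Both had separate groups. By DESeq2, which called 25.2% of 11876 genes, neither passed (adjusted p = 0.0707 for PRX19 and 0.115 for PRX56), and PRX56 also missed the threshold by edgeR without cog1-2D replicate 0, cog1-2D replicate 1 or wild type replicate 0 (adjusted p = 0.0531, 0.0765 and 0.0686).

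A call that misses the threshold does not show an unchanged gene, so the 95% interval of the fold change was used to bound it. The interval lay within 1.5-fold in either direction for 10 of 28 members, beside 62.2% of all genes tested. Of these, 7 did not pass the test: PRX12, PRX22, PRX45, PRX47, PRX64, PRX17 and PRX9. PRX12 had 229, 244 and 233 CPM in cog1-2D and 185, 209 and 223 CPM in the wild type; it did not overlap between genotypes, and its log2 fold change of 0.20 ± 0.07 had an adjusted p of 0.0597 by edgeR. PRX45 (AT4G30170) had 154, 148 and 143 CPM in cog1-2D and 122, 133 and 144 CPM in the wild type, overlapping by 1 library, with a log2 fold change of 0.16 ± 0.07. Without wild type replicate 2 both passed by edgeR as higher, with log2 fold changes of 0.26 for PRX12 and 0.22 for PRX45 (adjusted p = 0.0297 and 0.0384). The other 3 members so bounded, PRX3, PRX31 and PRX44, were called. For PRX5, PRX10, PRX23, PRX40, PRX42, PRX43 and PRX51 the interval was wider, and a change of 1.5-fold could not be bounded. PRX40 (AT4G16270), an anther gene that is also a target of UPBEAT1, had a log2 fold change of -0.35 ± 0.29, with means of 1.92 CPM in cog1-2D and 2.45 CPM in the wild type. The locus of PRX40 shares 869 bases with the transcribed pseudogene AT4G16267, so fragments from this stretch could count for either locus. The log2 fold change of PRX10 was -0.35 ± 0.30. PRX42 had 1.69, 2.2 and 1.54 CPM in cog1-2D and 1.39, 0.095 and 1.60 CPM in the wild type. Its lowest value was in wild type replicate 1, which also had the fewest genes above 0. The 3 minus-strand green tissue markers were lowest there too. The log2 fold change of PRX42 was 0.79 ± 0.56, and 0.27 without that library. PRX42 lies on the minus strand, and whether its few fragments follow the level of the gene was not tested.

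The authors' deposited table lists 15 members as changed, 5 higher and 10 lower, beside 29.8% of the 10259 genes with at least 60 fragments. It holds all 14 members called here, and PRX51.

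Enzymes that make or remove hydrogen peroxide, the substrate of the family, were read from the same fit, which called 36.3% of all genes tested. Of 4 tested NADPH oxidases, which produce superoxide at the plasma membrane, RBOHB rose from 16.4 to 35.0 CPM, with a log2 fold change of 1.09 ± 0.08. RBOH F fell by 0.19 ± 0.06 and AT1G19230 fell by 0.46 ± 0.08 on the log2 scale, and RBOHD did not pass. Of 8 tested ascorbate peroxidases and catalases, the catalase CAT3 rose by 0.69 ± 0.12, the thylakoid ascorbate peroxidase TAPX by 0.52 ± 0.07 and APX6 by 0.23 ± 0.08, while CAT1 fell by 0.41 ± 0.11. Of 5 tested extensins and LRX proteins, wall proteins of the extensin kind, LRX3 fell by 0.76 ± 0.08, LRX1 fell by 0.51 ± 0.11 and LRX2 fell by 0.48 ± 0.13; EXT3 and EXT4, on the minus strand, did not pass. Among 5 tested regulators of peroxidase genes, RHD6 and RSL4, named before, were lower, and MYB30, MYB36 and AT5G47390 did not pass.

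Stretches of 250 bases before the annotated start were searched on both strands. The core AAAG that Dof factors bind was present in all 28 measured members, and in 98.0% of 27436 protein-coding genes. The median number of matches was 5 for members called higher, 4 for those called lower and 3.5 for the rest, beside 4 for all genes, so the core is close to universal in windows of this length. The root hair element, a longer motif of root hair genes, was found in 2 measured members, PRX20 and PRX60, both lower in cog1-2D, and in 207 of all genes, or 0.754%. The windows lie at chr2:14892245-14892494 for PRX20 and chr5:7426060-7426309 for PRX60 of TAIR10.1 on the plus strand; they are printed with the match in capitals, because these are the members in which the element was found.
PRX20: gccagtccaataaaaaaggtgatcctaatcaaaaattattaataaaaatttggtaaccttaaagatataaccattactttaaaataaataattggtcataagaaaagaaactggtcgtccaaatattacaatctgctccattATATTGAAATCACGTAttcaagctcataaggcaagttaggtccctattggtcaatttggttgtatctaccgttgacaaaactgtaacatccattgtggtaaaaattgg
PRX60: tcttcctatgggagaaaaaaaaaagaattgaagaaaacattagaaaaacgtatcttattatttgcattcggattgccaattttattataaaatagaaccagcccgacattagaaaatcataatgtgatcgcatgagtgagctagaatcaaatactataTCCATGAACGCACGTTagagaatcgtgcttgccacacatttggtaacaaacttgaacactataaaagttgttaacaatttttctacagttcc
A match is a description of the letters only, and PRX7, PRX44 and PRX73 had none in these windows.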

How the data were processed

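Messenger RNA of 6 libraries was measured, with genotypes and replicate numbers taken from the labels and the column names. The tools in the submitters' processing notes are Cufflinks 2.2.1, Cuffdiff, HISAT2 2.1.0 and Trimmomatic 0.36, and the build is TAIR10. Their roles and the strand setting of the counting are not stated in the labels or files. The deposited table holds expected counts of fragments per gene, unscaled, and FPKM, scaled by gene length and library, per the file headers; 98.1% of those counts were whole (tolerance 1e-06). The authors' deposited list of changed genes holds log2 fold changes and q-values, per the file headers.

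After rounding, the counts were fitted with edgeR 4.0.16 in R 4.3.3 (filterByExpr, TMM factors, quasi-likelihood F-test, genotype as the 1 term, Benjamini-Hochberg adjustment over 10347 genes). CPM values use TMM factors. The standard error is the log2 fold change divided by the square root of F. Cuffdiff could not be rerun from tables. The common biological coefficient of variation was 0.0762. On simulated counts of 10233 genes for this comparison, the fit called 87 of 100 genes with a true log2 change of 1 and 56 of 100 with 0.5. It also called 9 unchanged genes. Only these few genes were changed, a smaller share than the 36.3% called in the data, so the rates do not give the power in these data. Intervals are 95%.

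Of 33617 table genes, 32225 matched a locus tag of TAIR10.1, which gave strand, position and sequence (RefSeq). Numbers of peroxidases follow the family's standard numbering; the reference names only some of them so. Members were set by family membership, but they, the lists and the naming rule were chosen with earlier results of these data known. By that rule every called member, the 10 highest by FPKM, tandem pairs, members bounded within 1.5-fold, members whose call changes, role list members and up to 4 called genes per context list were named. AT4G26020, AT1G30880, AT4G16267, CIL, BAK1 and AT5G42190 were named after their overlap was found. Alternatives were DESeq2 1.42.0, upper-quartile and RLE factors, limma 3.58.1 on log2 FPKM with pseudocounts of 1 and 0.1 (mean FPKM of at least 0.5), no filter on counts, a minimum mean of 50 fragments, robust dispersion, plus-strand genes, a replicate block, summed pairs and leaving out each library. Scipy 1.17.1, Biopython 1.88 and matplotlib 3.10.9 were used.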

Additional observations from a re-analysis of the deposited data

How the results depend on the processing

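Of 451 results of single members recomputed, 412 kept their direction and their side of the threshold, and 11 of 14 called members kept their call in all 16 settings other than the pair sum; the exceptions were PRX31, PRX56 and PRX19. DESeq2 called 3 members higher in place of 5. With 1 library left out, 4 to 7 members were called higher, 8 to 10 lower, and 8 to 12 had an interval within 1.5-fold. The family total then ran from -0.17 to -0.07 on the log2 scale, and from -0.22 to -0.11 without PRX12. Without wild type replicate 1, which stood apart, 5 were higher and 8 lower, and the total was -0.09. The summed pairs ran from -0.83 to -0.59 for PRX33 and PRX34, from -0.62 to -0.46 for PRX50 and PRX51, from -0.39 to -0.27 for PRX43 and PRX44, and from -0.115 to 0.054 for PRX22 and PRX23. Members near 0 changed sign: PRX9 ran from -0.166 to 0.067, PRX17 from -0.07 to 0.039, PRX22 from -0.038 to 0.073, PRX23 from -0.349 to 0.007 and PRX64 from -0.037 to 0.08. PRX17 was at 0.007 with upper-quartile factors and PRX64 at -0.009 with no low-count filter. As sums, PRX22, PRX33 and PRX43 take the value of their pair, -0.032, -0.737 and -0.327, by construction. PRX51 passed as lower with no low-count filter (adjusted p = 0.00141) and with plus-strand genes alone (0.0485), and PRX12 as higher with upper-quartile factors (0.0438); the cause was not tested. Deviations of same-numbered libraries correlated at r = -0.01, -0.02 and 0.11, which does not show that the numbers pair them and does not exclude it. With the replicate block, 6 members were higher and 10 lower by edgeR, and 12 had an interval within 1.5-fold. The gains were PRX12 (edgeR adjusted p = 0.0301) and PRX51 (0.007). For the block and the left-out libraries the share of all genes called is not given here, so these counts are not set against it. PRX42, with 92 fragments in all, had the widest interval; its log2 fold change of 0.79 was 0.272 without wild type replicate 1.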
